A study of Mus musculus with 4 samples.

Results

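The expression of 8 transcription factors that keep T cells quiescent or hold their identity was followed across blood cells: Bcl11b, Satb1, Lef1, Tcf7, Foxp1, Foxo1, Gata3 and Ets1. They were taken as a named set of 8 genes among the 32287 features of the count tables, by name and not by a threshold on a measured value. The libraries came from peripheral blood leukocytes of C57BL/6J mice, 10 weeks old, inoculated with acute lymphoblastic leukaemia, and every mouse received the tyrosine kinase inhibitor dasatinib. Blood was drawn 1 week into treatment, while all mice were in remission, and treatment ran for 4 more weeks. The mice were classed at day 100 as Relapsed (6 mice) or Cured (6 mice), so the groups differ in later outcome and not in treatment. Cells of 3 mice were pooled per library after cryopreservation and live sorting, which gave 2 Relapsed and 2 Cured libraries of the 10x Genomics 5′ kit. Cells of the pooled mice cannot be told apart. The p-values of Relapsed against Cured measure the spread between such pools. Those between cell classes, with the library as a block, measure how far the difference within a pool varies from pool to pool.

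Naive T cells circulate in a resting state that is held by an active transcriptional programme. TCF-1 (the product of Tcf7) and LEF-1 are HMG-box factors of the Wnt pathway that act in T cell specification and stay high in naive and stem-like memory cells. FOXO1 drives homing and survival genes such as Ccr7 and Il7r and is shut out of the nucleus by AKT, while FOXP1 enforces quiescence. BCL11B and GATA3 act in commitment of thymocytes to the T lineage, SATB1 organises chromatin, and ETS1 is an ETS-family activator shared by T, NK and B cells.

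Cells were classed on raw UMIs (unique molecular identifiers, 1 per captured RNA molecule) of marker genes, with none of the 8 factors among them. T cells had at least 2 UMIs of the Cd3 genes and no Ncr1. They were gated as CD8 (Cd8a or Cd8b1, without Cd4 and Cd40lg) or CD4 (the reverse) and split at a Ccl5 count of at least 2 against at most 1. Ccl5 encodes a chemokine of antigen-experienced T cells and NK cells. The gates held 249 CD8 and 31 CD4 T cells at Ccl5 of at least 2, 636 CD8 and 116 CD4 T cells at Ccl5 of at most 1, 718 NK cells and 11043 B cells. Levels are given in CPM, the UMIs of a gene per 1000000 UMIs of the class in that library. The summed level of a T cell marker list (Trac, Trbc2, Lat, Cd5 and Cd6) was 969 to 1386 CPM in the CD8 cells above the split and 949.6 to 1132 below it, against 157 to 241 in NK cells and 3.35 to 4.55 in B cells. Groups of 4 values stand in the order Relapsed replicate 1, Relapsed replicate 2, Cured replicate 1, Cured replicate 2.

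The libraries held 3631, 4383, 3859 and 4284 barcodes with 7184045 to 10840397 UMIs, and 131 barcodes occurred in 2 libraries. Relapsed replicate 1 stood apart. It carried haemoglobin RNA, with Hbb-bs at up to 3295 CPM in its CD8 cells below the split, 2528 in its NK cells and 2712 in its B cells. It was also the highest of the 4 libraries by CPM in 24 of 32 pairs of a factor and a class with at least 40 UMIs, against 2, 5 and 1 of 32 for the other libraries. The pairs repeat the same factors across classes, so they are not independent. The same count over all genes was not made, so whether 24 of 32 is unusual for these factors was not tested. Relapsed against Cured estimates that moved by over 1.5 times without Relapsed replicate 1 are given without that library too.

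The promoters of Tcf7, Lef1, Satb1 and Bcl11b are shown because the levels of Tcf7, Lef1 and Satb1 were lower together at high Ccl5, and because Bcl11b had the highest ratio of T cell to B cell level of the 8. Each window runs from 250 bases before to 50 after the most upstream start that RefSeq lists (build GRCm38.p6) and is written 5′ to 3′ on the strand of the gene, with capitals at a match to any of 4 motifs.
Tcf7: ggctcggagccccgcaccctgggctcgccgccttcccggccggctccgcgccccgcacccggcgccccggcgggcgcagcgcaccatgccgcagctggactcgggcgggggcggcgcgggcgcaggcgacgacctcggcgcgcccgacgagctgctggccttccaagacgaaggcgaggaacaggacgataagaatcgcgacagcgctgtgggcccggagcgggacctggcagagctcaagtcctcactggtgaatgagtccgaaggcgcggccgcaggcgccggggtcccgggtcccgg
Lef1: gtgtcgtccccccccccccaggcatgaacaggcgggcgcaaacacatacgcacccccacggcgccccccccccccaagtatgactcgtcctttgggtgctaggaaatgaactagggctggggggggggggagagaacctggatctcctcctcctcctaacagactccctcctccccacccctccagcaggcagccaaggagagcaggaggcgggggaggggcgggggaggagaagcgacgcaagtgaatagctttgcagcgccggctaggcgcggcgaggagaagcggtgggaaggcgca
Satb1: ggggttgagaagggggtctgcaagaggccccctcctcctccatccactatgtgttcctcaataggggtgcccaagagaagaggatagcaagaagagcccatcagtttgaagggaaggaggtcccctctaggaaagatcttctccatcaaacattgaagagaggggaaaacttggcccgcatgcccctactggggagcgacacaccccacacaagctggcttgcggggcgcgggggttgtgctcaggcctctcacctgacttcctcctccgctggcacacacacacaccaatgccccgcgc
Bcl11b: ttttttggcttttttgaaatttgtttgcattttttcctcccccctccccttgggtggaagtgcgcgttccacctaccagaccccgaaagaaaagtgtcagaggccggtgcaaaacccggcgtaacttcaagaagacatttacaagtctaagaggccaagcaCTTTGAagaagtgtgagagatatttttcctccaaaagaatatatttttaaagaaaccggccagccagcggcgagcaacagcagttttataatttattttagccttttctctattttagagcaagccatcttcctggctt

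The windows lie at chr11:52282965-52283264 (minus strand) for Tcf7, chr3:131110047-131110346 (plus strand) for Lef1, chr17:51833241-51833540 (minus strand) for Satb1 and chr12:108003365-108003664 (minus strand) for Bcl11b. Their GC content was 76.3% for Tcf7, 67.3% for Lef1, 59% for Satb1 and 43% for Bcl11b, where the median of 32851 RefSeq promoters of this length was 52.7%. Motifs were searched on both strands: CCGGAA, an ETS motif held by 14.9% of those promoters, GTAAACA, a forkhead motif held by 3.65%, CTTTGA, a motif of TCF-1 and LEF-1 held by 16.0%, and AGATAA, a motif of the GATA family held by 11.2%. Of the 7 factors with a listed promoter, 2 held a match. Bcl11b had CTTTGA, in capitals above, 89 bases before its start, and Gata3 had CCGGAA on the opposite strand 203 bases before its start. Ets1 was not in the promoter table. The Tcf7 window holds an ATG whose reading frame has no stop codon up to the end of the window. That stretch reads as protein-coding sequence, so the GC content and the lack of a match for Tcf7 are not taken as those of a promoter.

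The genes themselves are protein-coding genes of GENCODE M21 (GRCm38). Bcl11b lies at chr12:107910403-108003602 and Gata3 at chr2:9857078-9890034, both on the minus strand, Satb1 at chr17:51736187-51833290 (minus), Lef1 at chr3:131110471-131224356 (plus) and Tcf7 at chr11:52252371-52283014 (minus). Foxp1 lies at chr6:98925338-99522721 (minus), Foxo1 at chr3:52268336-52353221 (plus) and Ets1 at chr9:32636221-32757820 (plus). Exons of Satb1, Foxp1 and Gata3 overlap an annotated gene on the same strand (Gm36931 for Satb1, Gm20696 and Gm49348 for Foxp1, 9230102O04Rik for Gata3), so counts of these 3 are uncertain where reads were shared.

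**Figure D1:**
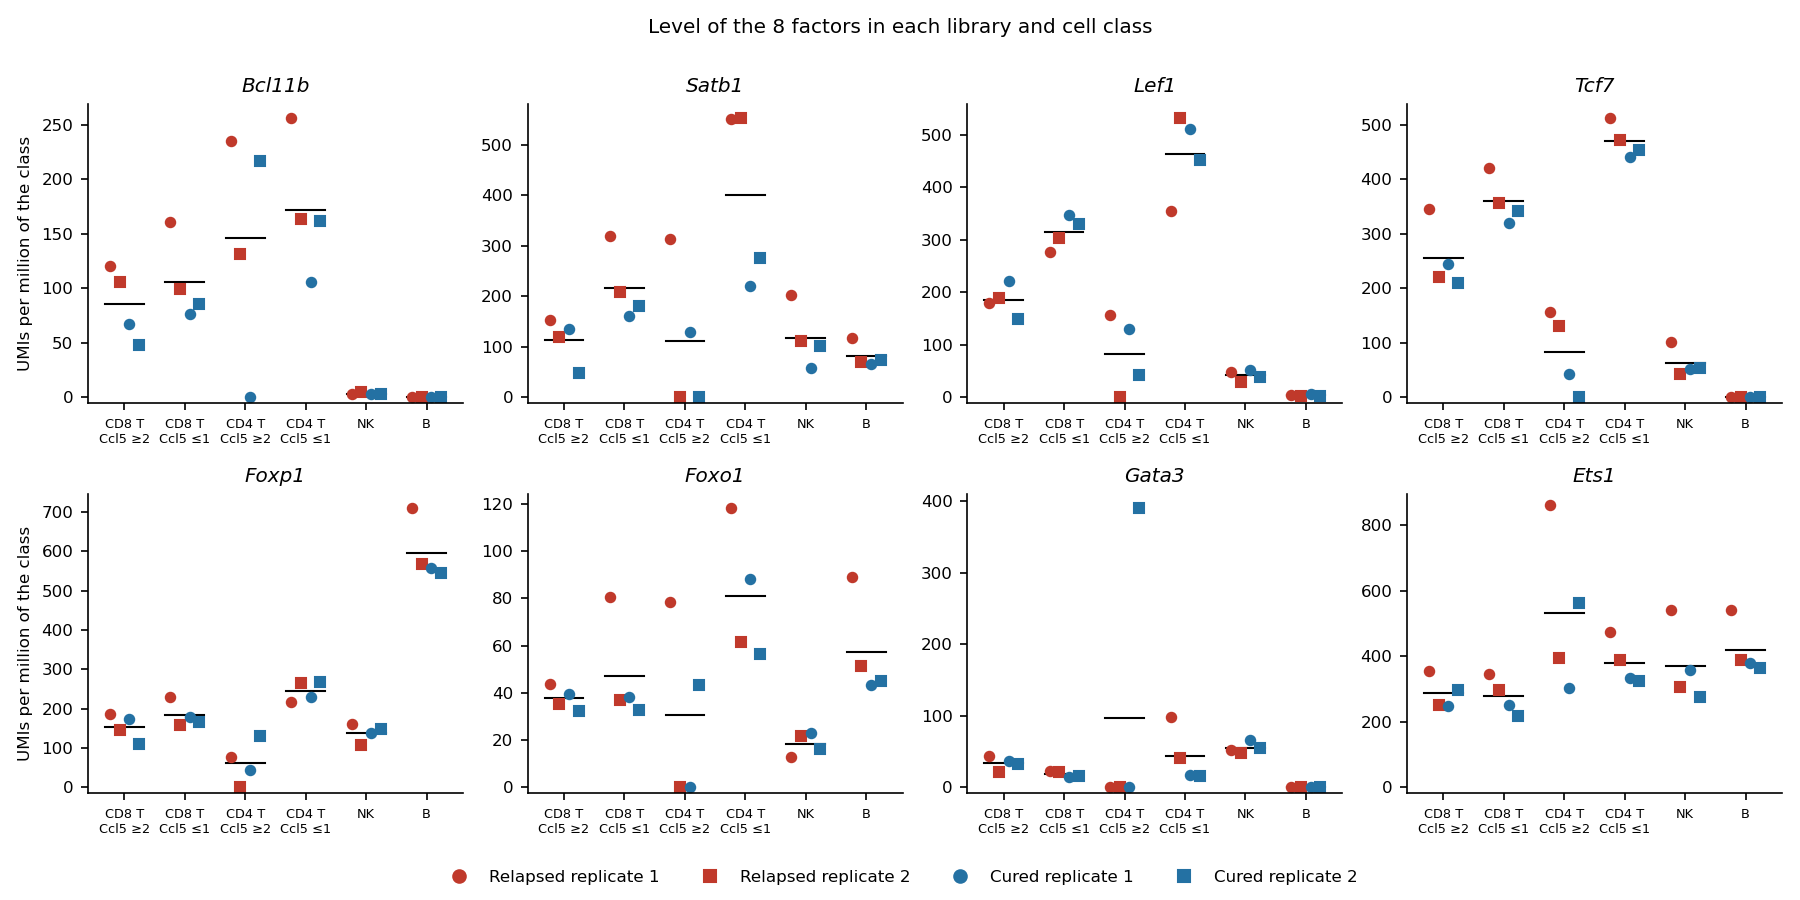
Level of each factor (y axis, CPM of the class, linear and from 0) in 6 cell classes. Points are libraries (red Relapsed, blue Cured; circles replicate 1, squares replicate 2) and bars are means of 4; Tcf7, Lef1 and Bcl11b are near 0 in B cells, Foxp1 is highest in B cells, and the CD4 class at Ccl5 of at least 2 holds only 3 to 11 cells per library.

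Among CD8 T cells, Lef1, Tcf7 and Satb1 were lower in cells with at least 2 Ccl5 UMIs than in cells with at most 1, and Ets1 had nearly equal levels in the 2 strata. Lef1, which encodes an HMG-box factor as Tcf7 does, measured 181, 190.2, 223 and 149 CPM above the split, against 277, 303, 347 and 330.2 below it. The 2 strata did not overlap, and the level above the split was the lower one in 4 of 4 libraries. Tcf7 measured 345, 221, 245 and 210.1 CPM above the split, against 421, 357, 320.4 and 342 below it. It was lower in every library, although the highest value above the split (Relapsed replicate 1) exceeded the lowest below it (Cured replicate 1). Satb1, the chromatin organiser, measured 153, 119, 135 and 48.5 CPM above the split, against 319.9, 208, 160.2 and 181 below it, with no overlap.

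In edgeR's quasi-likelihood test with the library as a block, the log2 fold change of Lef1 was −0.89 (SE 0.13, adjusted p = 6e-08), that of Tcf7 −0.62 (SE 0.12, adjusted p = 4.38e-05) and that of Satb1 −1.0 (SE 0.18, adjusted p = 0.000367). These 3 of 7 factors tested passed lower and none passed higher, against a background of 5.52% of 3171 genes called lower and 5.77% called higher. The median over the 7 was −0.42, beside −0.02 over all genes tested. Scaling by total UMIs in place of TMM factors moved the median of all genes to 0.11 and the split of called genes from 183 higher and 175 lower to 284 higher and 107 lower. The 3 calls held under it, at −0.76 for Lef1, −0.50 for Tcf7 and −0.89 for Satb1. Without the library block the Satb1 call was lost (adjusted p = 0.239). NK marker genes moved with the strata: their summed level was 637 to 1077 CPM above the split and 305 to 394 below it, against 30772 to 33381 in NK cells, and their part in the difference was not tested. A stricter gate changed several choices at once: it barred the NK genes Ncr1, Klrb1c, Klre1 and Klra8 and all B cell and myeloid marker genes, and it asked for a Cd3 sum of at least 3 and at least 2 UMIs of the Cd8 or Cd4 side. Under it the fold changes were −0.79 for Lef1, −0.42 for Tcf7 and −0.81 for Satb1, and all 3 still passed.

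**Figure D2:**
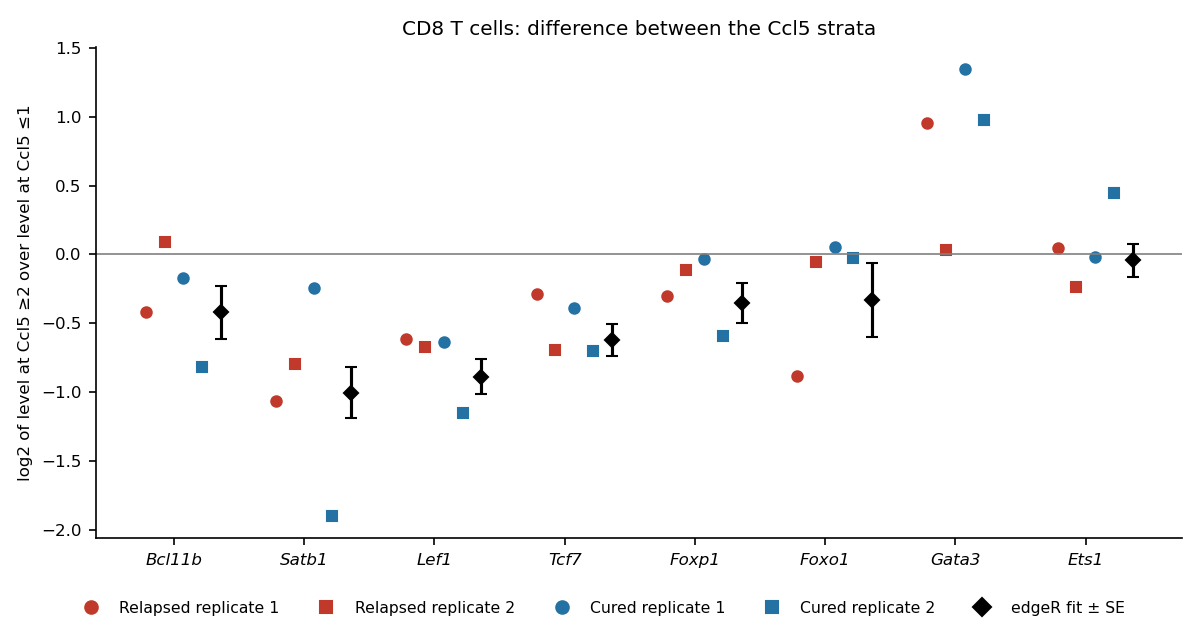
Difference between CD8 T cells with at least 2 and at most 1 Ccl5 UMIs (y axis, log2 ratio of CPM) for each factor and library, with the edgeR estimate ± SE as a black diamond (TMM-scaled, where the points are not). All 4 points of Lef1, Tcf7 and Satb1 lie below 0, and all 4 of Gata3, which was too low to be tested, lie above it.

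The other factors did not pass between the CD8 strata. Bcl11b measured 120.5, 106, 67.7 and 48.5 CPM above the split, against 161, 99.5, 76.2 and 85.4 below it, with overlap and 3 of 4 libraries lower (log2 −0.42, SE 0.19, adjusted p = 0.169). Foxp1, the quiescence factor of the forkhead family, measured 186, 146, 175 and 109.9 CPM above the split and 229, 158, 179 and 166 below it (log2 −0.35, SE 0.14, adjusted p = 0.106). It was lower in every library, and it passed when Cured replicate 1 was left out (−0.49, adjusted p = 0.0475). Foxo1 measured 43.8, 35.4, 39.5 and 32.3 CPM above and 80.6, 36.8, 38.1 and 32.9 below (log2 −0.33, SE 0.27, adjusted p = 0.523), and only the value of Relapsed replicate 1 below the split lay outside the range of 32.3 to 43.8 CPM. Ets1 measured 356, 252, 248 and 297 CPM above and 345, 296, 251 and 219 below (log2 −0.04, SE 0.12, adjusted p = 0.871), with the strata overlapping and the estimate turning to 0.08 under scaling by total UMIs.

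Gata3, the factor that acts in both T cell commitment and type 2 helper cells, was too low in CD8 cells to be tested, with 36 UMIs above the split and 40 below it. It measured 43.8, 22.1, 36.7 and 32.3 CPM above the split, against 22.7, 21.6, 14.4 and 16.4 below it. It was the only one of the 8 whose level above the split was the higher one in 4 of 4 libraries, and in Relapsed replicate 2 the 2 values were nearly the same.

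A finer division of the CD8 cells by their own Ccl5 count placed the low levels at its upper end. The bins of 0, 1, 2 to 4, 5 to 19 and at least 20 Ccl5 UMIs held 587, 49, 37, 50 and 162 cells. Mean Lef1 was 314, 313, 312, 232 and 142 CPM across them, and mean Satb1 was 221, 160.3, 189, 165 and 80.7. Lef1 was level up to 4 Ccl5 UMIs and lowest in the top bin, where its highest library (174 CPM) lay below the lowest library at 0 Ccl5 (274). Satb1 ranged from 17.7 to 127 CPM in the top bin, against 172 to 319 at 0 Ccl5. Mean Tcf7 was 356, 414, 265, 324 and 235 CPM, without a steady order. Gata3 averaged 38.1 CPM in the top bin, against 18.4 at 0 Ccl5, and mean Ets1 stayed between 265 and 299.9 CPM in all bins. Single libraries of Ets1 varied more, from 207 to 440 CPM in the bin of 1 and from 230 to 422 in the top bin. The 3 middle bins held as few as 4 to 8 cells in a library, and the bins were not tested.

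**Figure D3:**
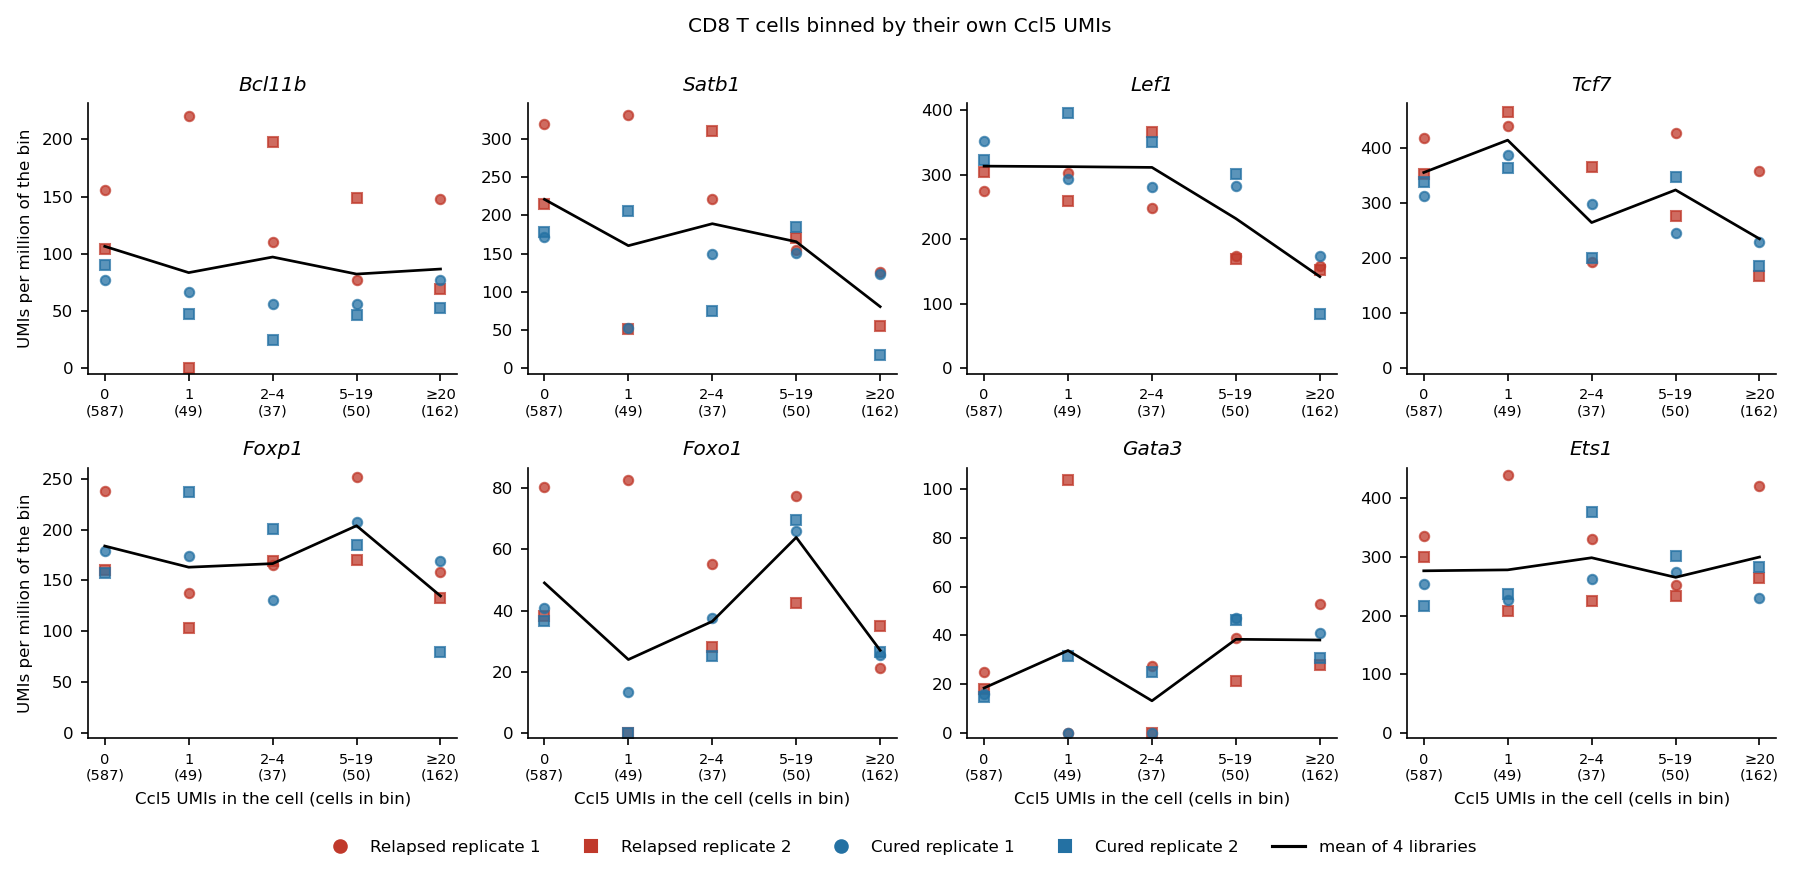
Level of each factor in CD8 T cells (y axis, CPM of the bin, from 0) by the Ccl5 UMIs of the cell (x axis, with cells per bin in brackets). Points are libraries and lines join the means of 4; Lef1 and Satb1 are lowest in the bin of at least 20 Ccl5 UMIs, and the middle bins hold few cells.

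The share of cells with a UMI of Tcf7 or Lef1 was also lower above the split once each cell was thinned to 1000 UMIs. Thinning gives the factors an equal depth of detection, where cells above the split were sampled more deeply (median 4307 UMIs, against 3466 below it, 1816 in NK cells and 2132 in B cells). The strata were still set on the Ccl5 counts before thinning, so depth can still bear on which stratum a cell entered. Tcf7 was detected in 21.9% of CD8 cells above the split and 32.4% below it (54.2% and 67.3% before thinning), against 5.65% of NK cells and 0.106% of B cells, which give the background for a gene that B cells lack. Lef1 was detected in 12.2% of CD8 cells above the split and 24.9% below it (43.8% and 62.6% before thinning), against 4.55% of NK cells and 0.351% of B cells. A thinned CD8 cell held a UMI of 1.01 of the 8 factors above the split and 1.37 below it, as means of 4 libraries. It held none of them in 34.1% of cells above the split and 21.6% below it. For Gata3 the thinned share (1.97% above the split and 2.92% below it) ran against its level in CPM, so no order is read from either.

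Lists of related genes were described in the same comparison. Of 14 naive and quiescence genes tested, 5 fell and 1 rose (Tob1, 0.89) at high Ccl5. Igfbp4, an insulin-like growth factor binding protein typical of naive T cells, changed by −4.16 on the log2 scale, Dapl1 by −1.60 and Ccr7, the lymph node homing receptor, by −1.04, each with an adjusted p from edgeR of at most 1.03e-06. The median of this list was −0.32, beside −0.02 over all genes. Of 3 effector and memory factors tested, Id2 (1.25) and Stat4 (0.79) rose. Of 9 other identity factors, Ikzf3 rose (1.09) and Bach2, a repressor that holds back effector differentiation, fell (−1.15). None of 5 cofactors of Tcf7 and Lef1 and none of 6 regulators upstream of Foxo1 passed, and none of 14 paralogues of the factors had enough UMIs to be tested.

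Among CD4 T cells the same 3 factors were lower at high Ccl5, on very few cells. Relapsed replicate 2 had 3 cells above the split and was left out of this fit, and the other libraries had 7 (Relapsed replicate 1), 10 (Cured replicate 1) and 11 (Cured replicate 2). Tcf7 gave 3 UMIs above the split in these 3 libraries, against 132 below it. The ratio of CPM above over below the split was 0.111, with an exact 95% counting interval of 0.0226 to 0.331. Lef1 gave 6 UMIs above the split and 132 below it, a ratio of 0.222 (0.0800 to 0.496), and Satb1 gave 7 and 87 UMIs, a ratio of 0.393 (0.153 to 0.844). These intervals cover counting error only. Ets1 gave 31 UMIs above the split and 102 below it, 863, 302 and 564 CPM in the libraries fitted, against 473, 335 and 324.

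The edgeR test called Tcf7 (log2 −3.19, SE 0.64, adjusted p = 0.000674), Lef1 (−2.21, SE 0.52, adjusted p = 0.00221) and Satb1 (−1.46, SE 0.56, adjusted p = 0.0437) lower in CD4 cells, 3 of 4 factors tested. The background was high: 39.7% of 416 genes were called, 18.3% lower and 21.4% higher, and the median of all genes was 0.25 (0.13 with RLE factors and 0.55 with total UMIs). The split of called genes was 89 higher and 76 lower with TMM, 77 and 89 with RLE and 134 and 46 with total UMIs. Ets1 did not pass (0.47, SE 0.33, adjusted p = 0.264). The Satb1 call was lost without Cured replicate 1 (adjusted p = 0.0633), without Cured replicate 2 (0.24), with total UMIs (0.1), with DESeq2 (0.147), with the split at 1 Ccl5 UMI (0.144) and without the library block (0.131), and the Lef1 call without Cured replicate 2 (0.0521). After thinning to 1000 UMIs per cell no factor had enough UMIs to be tested. NK marker genes summed to 217 to 1684 CPM in these CD4 cells above the split, against 52.9 to 315 below it, and their part was not tested.

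Igfbp4 had no UMI in CD4 cells above the split and 230 below it in the libraries fitted, which is at least 15.7-fold lower against a floor of 3 UMIs over the group. Id2, a factor of effector cells, was the 1 effector gene tested and rose (3.53), as did Ywhaz (0.85), a 14-3-3 adaptor and the 1 regulator upstream of Foxo1 that was tested. Of 5 naive and quiescence genes tested, Igfbp4 alone passed. In Cured replicate 2 Gata3 had 9 UMIs in 11 CD4 cells above the split, 390.3 CPM, and the other 3 libraries had 0 in 20 cells together. With the limit set at 3 UMIs, a count of 0 allows a level of up to 235 CPM in Relapsed replicate 1, 395 in Relapsed replicate 2 and 129.5 in Cured replicate 1. The level of Cured replicate 2 lay above this limit in Relapsed replicate 1 and Cured replicate 1, and just under it in Relapsed replicate 2.

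Between CD8 and CD4 T cells with at most 1 Ccl5 UMI, Satb1 was lower in CD8 cells. It measured 319.9, 208, 160.2 and 181 CPM in CD8 cells, against 552, 553, 220.5 and 275 in CD4 cells, and was the lower one in 4 of 4 libraries. The edgeR fold change was −0.68 (SE 0.18, adjusted p = 0.013), the 1 call among 7 factors tested, beside 5.13% of 2337 genes called, 1.88% lower and 3.25% higher. That call did not hold when any 1 library was left out (adjusted p from 0.0502 to 0.189), nor with DESeq2 (0.0567), after thinning (0.293), under the stricter gate (0.662), without a count filter (0.658) or without the library block (0.538). Scaling by total UMIs split the called genes into 40 higher and 65 lower, in place of 76 and 44, and also called Lef1 (−0.55, adjusted p = 0.024). The stricter gate called Bcl11b (−1.11, adjusted p = 0.0405).

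The other 6 were also lower in CD8 cells by estimate without passing. Lef1 measured 277, 303, 347 and 330.2 CPM in CD8 cells and 355, 532, 512 and 453 in CD4 cells (log2 −0.44, SE 0.15, adjusted p = 0.0735). Bcl11b measured 161, 99.5, 76.2 and 85.4 in CD8 cells and 256, 164, 106 and 162 in CD4 cells (−0.60, adjusted p = 0.179). Foxo1 had −0.75, Ets1 −0.36, Foxp1 −0.35 and Tcf7 −0.29, with adjusted p from 0.254 to 0.431. Of the other lists, the CD8 lineage factor Runx3 rose (2.23), Dapl1 rose (1.32), and Igfbp4 (−1.39) and Slfn2 (−0.75) fell.

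Against NK cells, CD8 T cells carried far more Bcl11b, Lef1 and Tcf7 and less Gata3. Bcl11b gave 5 UMIs in 718 NK cells, 2.74 to 4.82 CPM, against which its 76.2 to 161 CPM in CD8 cells with at most 1 Ccl5 UMI was 28.3 times as high by pooled UMIs (exact 95% counting interval 11.9 to 87.9). Lef1 measured 277, 303, 347 and 330.2 CPM in these CD8 cells, against 49.1, 28.9, 51.8 and 38.4 in NK cells. Tcf7 measured 421, 357, 320.4 and 342 CPM in CD8 cells, against 101, 43.4, 51.8 and 54.9 in NK cells, so neither factor overlapped. Gata3 measured 22.7, 21.6, 14.4 and 16.4 CPM in the CD8 cells, against 52.3, 48.2, 66.2 and 54.9 in NK cells, the lower one in every library.

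All 8 factors passed the edgeR test between these CD8 cells and NK cells, 7 higher and Gata3 lower (log2 −0.96, SE 0.29, adjusted p = 0.00259), where 45.3% of 4185 genes were called, 23% higher and 22.3% lower. The fold changes were 5.41 for Bcl11b, 3.57 for Lef1, 3.21 for Tcf7, 1.89 for Foxo1, 1.56 for Satb1, 1.04 for Foxp1 and 0.26 for Ets1. The scaling mattered here. With total UMIs in place of TMM the median of all genes moved from −0.01 to −0.70, and the called genes split into 391 higher and 2712 lower in place of 963 and 933. Ets1 then reversed to −0.44 (adjusted p = 1.49e-05), in the direction of its levels of 345, 296, 251 and 219 CPM in CD8 cells, against 539.7, 306, 357 and 277 in NK cells. With TMM its call was also lost without Relapsed replicate 2 (adjusted p = 0.335), without Cured replicate 2 (0.0586), without a count filter (0.0689), with DESeq2 (0.282) and without the library block (0.475). No direction is given for Ets1 between T and NK cells for these reasons. Bcl11b (4.75), Lef1 (2.88), Tcf7 (2.51), Foxo1 (1.20), Satb1 (0.86), Foxp1 (0.35) and Gata3 (−1.64) kept their direction and their call under total UMIs. The Gata3 call was lost with DESeq2 (adjusted p = 0.115) and without Cured replicate 1 (0.0831).

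CD8 cells with at least 2 Ccl5 UMIs lay between the CD8 cells below the split and NK cells in fold change. Against NK cells, Bcl11b was at 4.94 on the log2 scale, Lef1 at 2.65, Tcf7 at 2.54, Foxo1 at 1.46 (adjusted p = 0.0014), Foxp1 at 0.64 (adjusted p = 0.000707) and Satb1 at 0.50 (SE 0.20, adjusted p = 0.0344), 6 calls higher where 15.9% of 3642 genes were called higher and 15.4% lower. Satb1 reversed to −0.04 and Foxp1 fell short at 0.10 under total UMIs, which moved the median of all genes to −0.57 and the split from 578 higher and 560 lower to 281 and 1884. After thinning to 1000 UMIs 2 of 5 factors tested passed (Lef1 and Tcf7), and Satb1 was at 0.08. The Satb1 call was also lost without Cured replicate 1, where the log2 fold change was 0.09, without Relapsed replicate 2 (adjusted p = 0.306), with DESeq2 (0.524), without the library block (0.592), without a count filter (0.114) and with strata of at least 5 against 0 Ccl5 UMIs (0.502). The Foxp1 call was also lost with DESeq2 (adjusted p = 0.107) and after thinning (0.381). Gata3 (−0.25, adjusted p = 0.574) and Ets1 (0.17, adjusted p = 0.324) did not pass, and under total UMIs both passed as lower, Gata3 at −0.79 (adjusted p = 0.0164) and Ets1 at −0.37 (adjusted p = 0.0126). Il7r, the IL-7 receptor subunit of resting T cells and a FOXO1 target, was higher in CD8 cells than in NK cells both above the split (4.33) and below it (4.46), with 9 and 12 of the naive and quiescence genes higher among 13 and 14 tested. Id2 was lower in both (−1.69 and −2.90), with 7 of 8 effector factors lower in each.

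**Figure D4:**
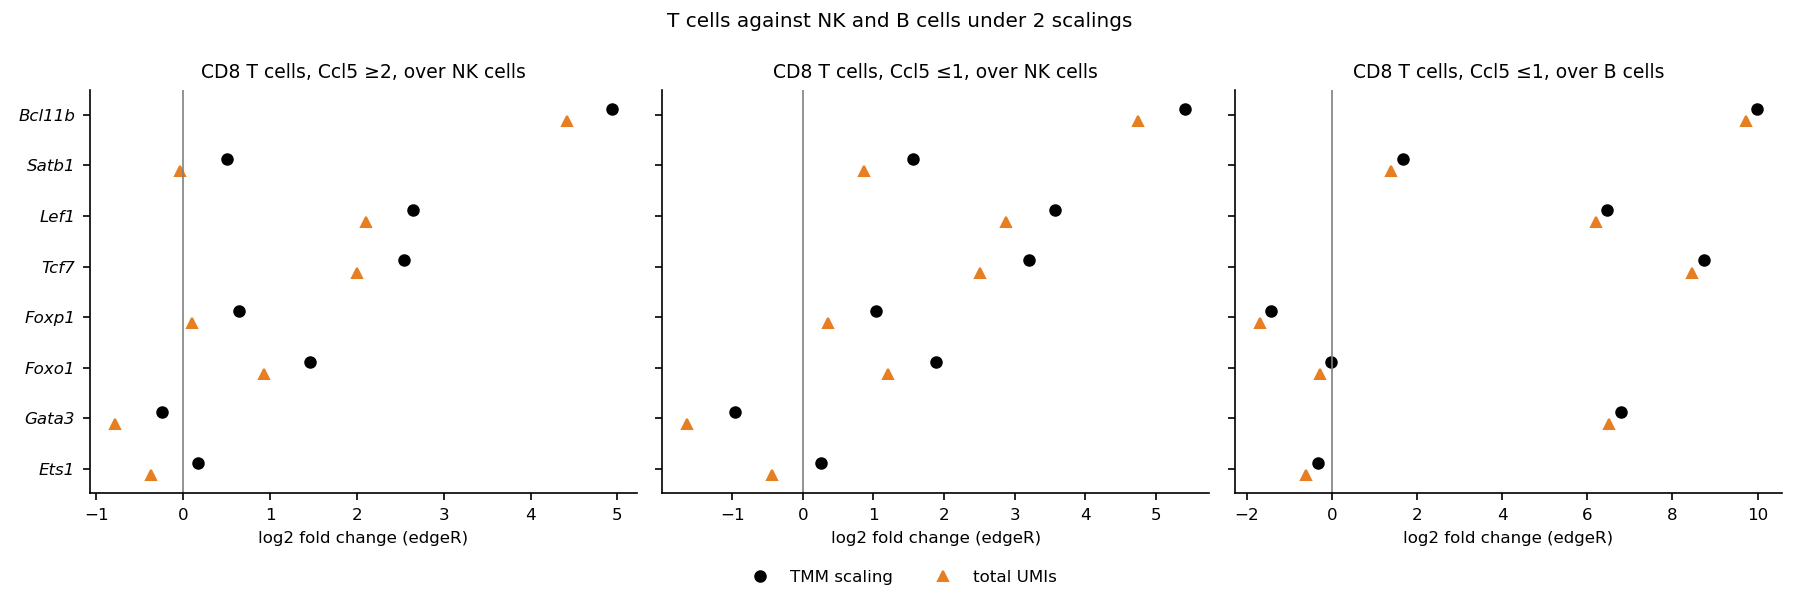
Fitted log2 fold change (x axis) of each factor in CD8 T cells over NK cells, above and below the Ccl5 split, and over B cells, with TMM scaling (black circles) and total UMIs (orange triangles); the x axes differ between panels. Total UMIs place every factor lower, and Ets1 changes sign against NK cells, as does Satb1 above the split.

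Against B cells the 8 factors divided. Bcl11b gave 2 UMIs in 11043 B cells and 220 in 636 CD8 cells with at most 1 Ccl5 UMI, a ratio of CPM of 1228 (exact 95% counting interval 336 to 10210). Gata3 gave 4 UMIs in B cells and 40 in the CD8 cells, a ratio of 112 (40.4 to 429.7). Tcf7 measured 421, 357, 320.4 and 342 CPM in the CD8 cells, against 1.44, 0.437, 0.790 and 1.33 in B cells, and Lef1 277, 303, 347 and 330.2, against 4.79, 3.20, 6.48 and 3.06. Foxp1 went the other way, with 229, 158, 179 and 166 CPM in the CD8 cells, against 709.7, 569, 556 and 545 in B cells. FOXP1 also acts in B cell development. Ets1 measured 345, 296, 251 and 219 CPM in CD8 cells, against 540.4, 389.7, 379 and 366 in B cells, and Foxo1 80.6, 36.8, 38.1 and 32.9, against 88.8, 51.3, 43.3 and 45.1.

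In the edgeR test 5 factors passed higher in the CD8 cells and 2 lower, where 19.3% of 8894 genes were called higher and 21.1% lower. Lef1 (6.47), Tcf7 (8.73) and Satb1 (1.66) were higher, as were Bcl11b and Gata3, whose fitted values rest on so few B cell UMIs that the ratios above are the measure. Foxp1 (−1.43) and Ets1 (−0.33) were lower, and Foxo1 (−0.02, adjusted p = 0.945) did not pass. Total UMIs moved the median of all genes from −0.05 to −0.32 and the split from 1719 higher and 1876 lower to 1150 and 3134, and every factor kept its direction under it. The Ets1 call was lost without the library block (adjusted p = 0.111). Of 14 paralogues of the factors 5 had enough UMIs to be tested here, and Bcl11a, the B-lineage relative of Bcl11b, was lower in the CD8 cells (−5.81), as were Foxp4 (−1.93) and Ets2 (−1.66).

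The likeness of patterns depended on the CD4 class above the split, where several factors had a count of 0 in a library. Over the 20 points of the other 5 classes by 4 libraries, the pairs with the most alike patterns were Lef1 and Tcf7 (Pearson r of log2 levels 0.978), Bcl11b and Lef1 (0.96) and Bcl11b and Tcf7 (0.933), and over all 24 points r was 0.754, 0.623 and 0.688. Foxp1 and Foxo1 had the highest r over the 24 points (0.772) but 0.531 over the 20. Points of 1 library share its depth and points of 1 class its composition, so r is a description. Among 4450 other genes, the nearest over the 24 points, with r over the 24 and over the 20, were Klk8 (0.866 and 0.96) and Cd3d (0.865 and 0.977) for Bcl11b, Saraf for Lef1 (0.923 and 0.951), Tmsb10 for Tcf7 (0.912 and 0.955), Pde4b for Foxp1 (0.951 and 0.927), Kif1b for Gata3 (0.88 and 0.874) and Lbh for Ets1 (0.766 and 0.759). Cd3d was also used to gate T cells. For Satb1 and Foxo1 the nearest genes over the 24 points, Mitd1 (0.927) and Fdx2 (0.964), fell to 0.432 and 0.787 over the 20.

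Relapsed and Cured libraries were then compared within each class. In all CD8 T cells, Bcl11b and Satb1 were higher in Relapsed libraries. Bcl11b measured 148 and 102 CPM in Relapsed libraries (86 and 70 UMIs), against 73.5 and 73.0 in Cured libraries (82 and 67 UMIs). Satb1 measured 267 and 179 CPM in Relapsed libraries, against 152 and 136 in Cured libraries. The groups did not overlap for either gene, and the Relapsed value of replicate 1 was well above that of replicate 2. Tcf7, Ets1 and, narrowly, Gata3 did not overlap either, nor did Lef1, which was lower in Relapsed libraries, and none of these passed. An exact permutation test gives a full separation of 2 from 2 libraries a p of 0.333. The share of all genes without overlap was not computed, so the lack of overlap adds no support. By edgeR the log2 fold change was 0.82 for Bcl11b (SE 0.22, adjusted p = 0.0423) and 0.68 for Satb1 (SE 0.18, adjusted p = 0.0423), 2 of 8 factors tested, where 0.445% of 5616 genes were called, 0.321% higher and 0.125% lower.

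Both calls were lost without Relapsed replicate 1 and without either Cured library. Without Relapsed replicate 1, Bcl11b was at 0.50 (adjusted p = 0.853) and Satb1 at 0.33 (adjusted p = 0.968). Without Cured replicate 1 the values were 0.88 and 0.82, and without Cured replicate 2 0.77 and 0.56, and neither gene passed in either case. Without Relapsed replicate 2, when Relapsed replicate 1 alone stood for its group, both passed at 1.09 and 0.96, and so did Ets1 (0.57) and Foxo1 (1.02). Neither passed with DESeq2 (adjusted p = 1.00), which called 0 genes (93 at an unadjusted p under 0.05), nor with total UMIs (0.76, adjusted p = 0.359, and 0.62, adjusted p = 0.378), where 2 genes were called in place of 25, 1 in each direction in place of 18 higher and 7 lower. With 2 pools per group, 0.333 is the smallest p an exact permutation test allows. The median CD8 cell had 3254 and 3377 UMIs in Relapsed libraries, against 3849 and 3811 in Cured libraries, and after thinning to 1000 UMIs the values were 0.86 and 0.42 with neither passing.

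The other 6 factors did not pass in CD8 cells. Tcf7 measured 397 and 312 CPM in Relapsed libraries, against 297 and 297 in Cured libraries (log2 0.32, SE 0.17, adjusted p = 0.606). Lef1 measured 247 and 266 in Relapsed libraries, against 307 and 269 in Cured libraries (−0.11, SE 0.17, adjusted p = 0.927). It was the 1 factor of 8 lower in Relapsed by estimate, and that sign turned without Cured replicate 1 (0.04). Ets1 measured 349 and 282 in Relapsed libraries, against 249.9 and 245 in Cured libraries (0.41, adjusted p = 0.395), and Foxo1 69.0 and 36.3, against 38.5 and 32.7 (0.59, adjusted p = 0.56). Foxp1 (0.24) and Gata3 (0.28) had adjusted p of 0.796 and 0.914. Without Relapsed replicate 1 the estimates were 0.04 for Foxo1, 0.21 for Ets1, 0.10 for Tcf7 and 0.04 for Gata3, and Foxp1 turned to −0.06. Of the other lists 1 gene passed in CD8 cells, Bcl9l, a coactivator of the Wnt pathway, at 70.7 and 50.9 CPM in Relapsed libraries, against 28.7 and 26.1 in Cured libraries (1.19, SE 0.30, adjusted p = 0.0237). That call was lost without Relapsed replicate 1 (0.91), without Cured replicate 1 (1.32) and without Cured replicate 2 (1.08). By edgeR it was also lost with total UMIs (adjusted p = 0.192), after thinning (0.567) and under the stricter gate (0.407), and it was lost with DESeq2. The Bcl9l call held with RLE factors, without the count filter (adjusted p = 0.0387) and with the replicate block (0.0256).

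Within the Ccl5 strata no factor passed. Bcl11b measured 120.5 and 106 CPM in Relapsed libraries, against 67.7 and 48.5 in Cured libraries, in CD8 cells above the split (log2 1.03, SE 0.37, adjusted p = 0.431), where 5 of 2626 genes were called (0.19%, with 0.0762% higher and 0.114% lower). Below the split Bcl11b measured 161 and 99.5 in Relapsed libraries, against 76.2 and 85.4 in Cured libraries (0.74, SE 0.25, adjusted p = 0.502). Satb1 had 0.61 (SE 0.36, adjusted p = 0.861) above the split, and 0.69 (SE 0.20, adjusted p = 0.499) below it. The value of Satb1 above the split ran from −0.01 without Cured replicate 2 to 1.66 without Cured replicate 1, where it passed (adjusted p = 0.0494), and it was 0.36 without Relapsed replicate 1. Below the split, Bcl11b was at 0.34 and Satb1 at 0.32 without Relapsed replicate 1. Below the split 0 of 4244 genes were called by edgeR (0%) and 0 by DESeq2, with 339 and 63 at an unadjusted p under 0.05. The test of the difference between the strata gave 0.29 (SE 0.40) for Bcl11b and −0.08 (SE 0.32) for Satb1, adjusted p = 1.00 each (0.52 and 0.04 without Relapsed replicate 1), where 2 of 3984 genes were called (0.0502%).

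Satb1 was also higher by estimate in the Relapsed libraries of the other classes. In CD4 T cells it measured 504 and 478 CPM in Relapsed libraries, against 205 and 232 in Cured libraries (log2 1.23, SE 0.28, unadjusted p = 0.000274, adjusted p = 0.286 by edgeR). The value without Relapsed replicate 1 was 1.20, so here the difference did not rest on that library. The Relapsed values came from 32 and 27 UMIs in 24 and 22 cells, and the Cured values from 28 and 34 UMIs in 48 and 53 cells. In NK cells Satb1 measured 203 and 111 CPM in Relapsed libraries, against 57.6 and 101 in Cured libraries (0.98, SE 0.32, adjusted p = 0.704, and 0.50 without Relapsed replicate 1). In B cells it measured 118 and 69.6 in Relapsed libraries, against 67.1 and 73.4 in Cured libraries (0.40, SE 0.23, adjusted p = 0.601), and −0.00 without Relapsed replicate 1.

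By edgeR 0 of 1079 genes were called in CD4 cells, 0 of 4498 in NK cells and 0 of 10224 in B cells (0% each), with 41, 300 and 886 at an unadjusted p under 0.05. DESeq2 called 0 in CD4 cells, 0 in NK cells and 6 in B cells. In B cells Foxo1 measured 88.8 and 51.3 CPM in Relapsed libraries, against 43.3 and 45.1 in Cured libraries (log2 0.65, SE 0.24, adjusted p = 0.543), Foxp1 709.7 and 569, against 556 and 545 (0.22), and Ets1 540.4 and 389.7, against 379 and 366 (0.32). In each of these Relapsed replicate 1 was the highest library, and without it the estimates were 0.23 for Foxo1, 0.06 for Foxp1 and 0.08 for Ets1. The difference between the CD8 and the B cell effect of Satb1 was 0.26 (SE 0.16, adjusted p = 1.00), where 3 of 9732 genes were called (0.0308%, with 0.0103% higher and 0.0206% lower), so the higher CD8 estimate was not shown to be particular to T cells. Haemoglobin RNA was also highest in Relapsed replicate 1, and its part in these values was not tested.

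**Figure D5:**
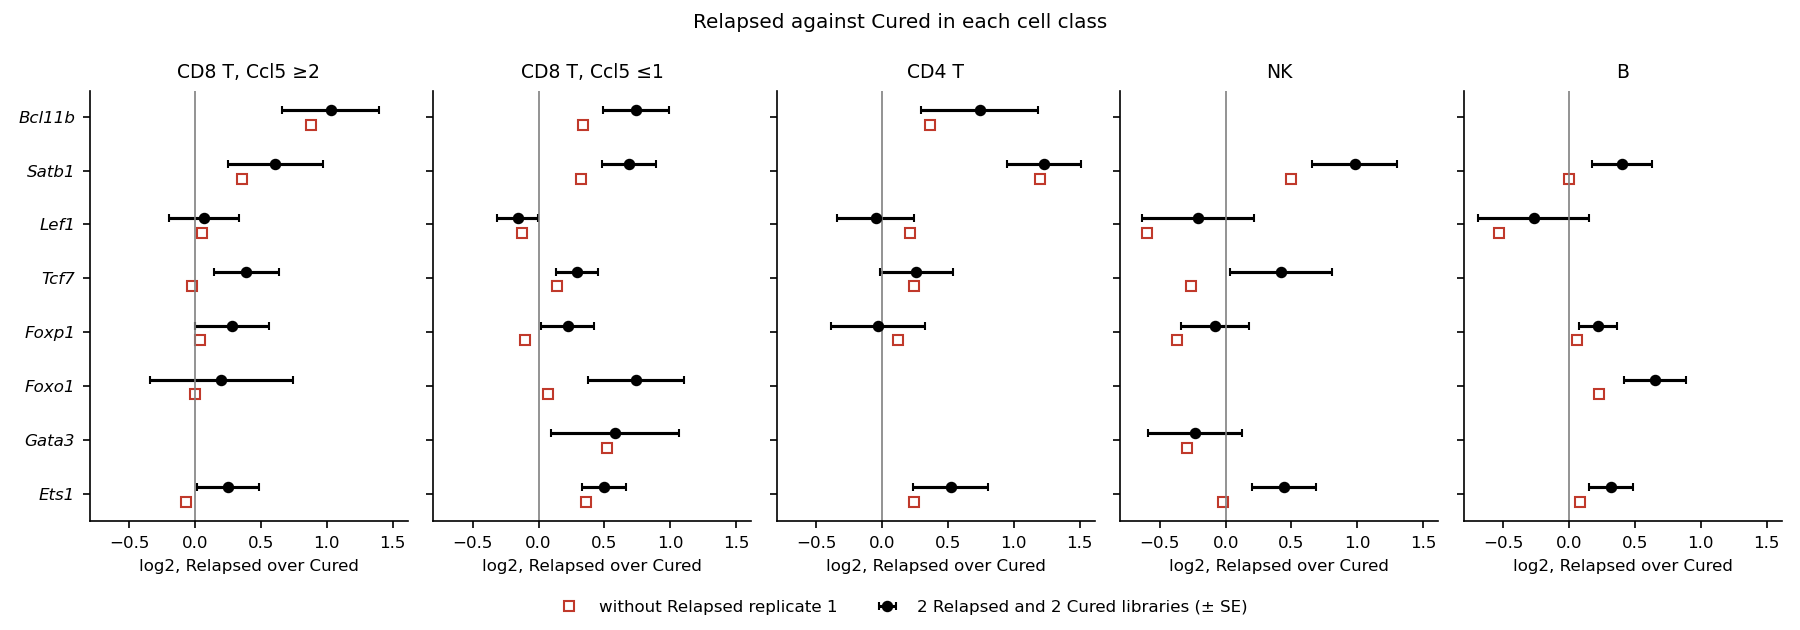
Fitted log2 fold change of Relapsed over Cured libraries (x axis) for each factor in 5 cell classes, ± SE with all 4 libraries (black circles) and without Relapsed replicate 1 (open red squares); factors too low to be tested have no point. Without that library the estimates in CD8 cells below the Ccl5 split are 0.07 for Foxo1, 0.32 for Satb1 and 0.34 for Bcl11b. Above the split they are 0.00 for Foxo1, 0.36 for Satb1 and 0.88 for Bcl11b (1.03 with all 4 libraries). Bcl11b in CD4 cells (0.36), Satb1 in NK and B cells and Foxo1 and Ets1 in B cells also move toward 0. Satb1 in CD4 cells stays at 1.20.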

How the data were processed

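The authors deposited 1 matrix of raw UMI counts per library (genes by cell barcodes), made with Cell Ranger 3.1.0 against mm10, per the submitters' processing notes; the annotation release is not given in the sources used here. Libraries held 7184045 to 10840397 UMIs. Barcodes with at least 200 genes and at most 10% mitochondrial UMIs were kept, 15439 of 16157. No doublet caller was run and no cells were clustered. T cells needed a Cd3 sum of at least 2 and at most 1 UMI each of B cell and of myeloid genes, and NK cells 2 of 4 NK genes. B cells needed 2 of 4 B cell genes and no UMI of Cdkn2a or of the features GFP_1 and BCR_ABL_1. They also had no UMI of the Cd3 genes, Ncr1 or Klrb1c. The 12793 cells of the 6 classes were summed per library. The 8 factors and all lists were chosen with earlier results of these data known.

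Sums were tested in R 4.3.3 with edgeR 4.0.16 (quasi-likelihood, TMM factors, filterByExpr, two-sided, Benjamini-Hochberg over all genes tested, threshold 0.05), a class needing 5 cells in a library. Class comparisons carried the library as a block, and Relapsed against Cured comparisons did not. The labels do not say whether a replicate number pairs libraries across the groups. Same-numbered libraries deviated with a correlation of 0.0315 in CD8 cells, −0.0277 in NK cells and 0.0656 in B cells. With 2 libraries per group these values cannot decide whether the libraries were paired. Alternatives were RLE factors, no count filter, DESeq2 1.42.0, thinning to 1000 UMIs per cell, a stricter gate (Cd3 sum of at least 3, at least 2 UMIs of the CD4 or CD8 side, no B cell, myeloid or NK gene), other Ccl5 splits, the block reversed, and each library left out. Scaling by total UMIs was added after seeing the data, because levels in CPM and fitted fold changes differed in sign for Ets1 against NK cells, and patterns without the CD4 class above the split were added too. Levels, shares and counting intervals (exact, 95%) were computed in Python 3.11.15, and the edgeR script was tested on simulated counts. Of genes given a 2-fold change there, it called 59% between the CD8 strata and 35% between Relapsed and Cured CD8 cells. The simulation had a single fixed dispersion and no deviating library, and only genes above a minimum count were changed. These rates are therefore not the power of the real comparisons. A gene that did not pass may thus still differ.

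Named are all 8 factors, up to 3 genes of each list that passed with the smallest p, and up to 3 genes most alike in pattern (mean level of at least 20 CPM, Pearson r of log2 values with a pseudocount of 1).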

Additional observations from a re-analysis of the deposited data

Results flagged for a closer look

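In 3 of 36 groups of 4 library values, 1 library lay far from the other 3 by Dixon's criterion, which chance meets in about 1 of 20 groups. The Lef1 difference between CD8 cells with at least 2 and at most 1 Ccl5 UMIs was −1.15 on the log2 scale of CPM in Cured replicate 2, against −0.67 to −0.62 in the other libraries. Without that library the fitted value was −0.72 and still passed. The same difference for Foxo1 was −0.88 in Relapsed replicate 1, against −0.06 to 0.05 elsewhere, and its fitted value without that library was −0.12. Foxo1 had only 8 UMIs above the split in Relapsed replicate 1. The difference of Foxo1 between CD8 cells with at most 1 Ccl5 UMI and NK cells was 2.62 in Relapsed replicate 1, against 0.73 to 1.00 in the other libraries, with a fitted value of 1.45 without it that still passed. In the NK cells of Relapsed replicate 1 Foxo1 had only 4 UMIs. Relapsed replicate 1 also carried the haemoglobin RNA described above, and its part in the Foxo1 values was not tested.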

How the results depend on the processing

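The calls of Lef1 and Tcf7 between the CD8 strata, and those of Bcl11b, Lef1 and Tcf7 against NK and B cells, held under every alternative that could test them. Few T cells (31 CD4 cells above the Ccl5 split), 2 pools per group and 1 deviating Relapsed library limit the rest. Of 1104 values of the factors under alternatives, 971 kept direction and call, 63 changed sign, 53 lost a call and 17 gained one; the causes were not tested. The stricter gate could not be fitted for the CD4 strata.

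Genes called between the CD8 strata numbered 358, and 131 with DESeq2, 169 after thinning, 173 under the stricter gate and 159 with no replicate block, where Ets1 turned to 0.08 with total UMIs and 0.27 after thinning. Between the CD4 strata 165 were called, and 94 with DESeq2 and 86 after thinning, with 0 factors after thinning and Ets1 at −0.47 without the count filter. Between CD8 and CD4 cells 120 were called, and 197 without the filter, 70 with DESeq2, 40 after thinning and 75 with no replicate block. The 1 factor called there became 2 with total UMIs and 0 without the filter, with DESeq2, after thinning and with no replicate block, and it was Bcl11b in place of Satb1 under the stricter gate.

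Against NK cells below the split 1896 genes were called, and 3103 with total UMIs, 1137 with DESeq2 and 854 after thinning, with Ets1 at −0.44 under total UMIs. Above the split 1138 were called, and 2165, 586 and 446 under the same alternatives, with 2 factors after thinning in place of 6 and Satb1 at −0.04 and Ets1 at −0.37 under total UMIs. Against B cells 3595 were called, and 1821 after thinning, with Foxo1 at 0.02 under the stricter gate and 0.05 under both other Ccl5 splits.

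Between Relapsed and Cured CD8 cells 25 genes were called, and 2 with total UMIs, 0 with DESeq2, 0 after thinning, 4 under the stricter gate and 29 with the replicate block. The 2 factors became 0 with total UMIs, without the filter, with DESeq2, after thinning, under the stricter gate and with the replicate block (adjusted p = 0.0649 for Bcl11b and 0.0523 for Satb1). Below the split the 0 called became 10 without the filter, 5 after thinning and 17 with the replicate block. Above it the 5 called became 9 with RLE factors, 3 with total UMIs, 15 without the filter, 0 with DESeq2, 0 after thinning and 18 with the replicate block. Lef1 there turned to −0.01 with total UMIs, −0.02 without the filter and −0.25 under the stricter gate, which also turned Foxp1 to −0.07 and Ets1 to −0.16. In CD4 cells the 0 called became 4 without the filter, with Tcf7 at −0.04, and stayed 0 with the replicate block. In NK cells they became 10 without the filter, 3 after thinning and 12 with the replicate block, and in B cells 164 without the filter, 6 with DESeq2, 4 after thinning and 18 with the replicate block.

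The difference of the Relapsed effect between the strata had 2 genes called, and 1 with RLE factors, 1 with total UMIs, 1 without the filter, 0 with DESeq2 and 0 after thinning. Bcl11b turned to −0.06, Lef1 to −0.04 and Foxp1 to −0.35 under the stricter gate, Foxp1 to −0.51 after thinning and Satb1 to 0.07 with DESeq2. The difference between CD8 and B cells had 3 called, and 7 with RLE factors, 6 without the filter, 0 with DESeq2 and 5 under the stricter gate. There Satb1 (−0.10), Gata3 (−0.29) and Ets1 (−0.04) turned after thinning, Foxp1 reached 0.00 with DESeq2 and 0.01 after thinning, and Foxo1 reached 0.07 under the stricter gate.

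Leaving out each library in turn gave these ranges. Between the CD8 strata Ets1 ran from −0.14 to 0.04. Between the CD4 strata the genes called ran from 94 to 220 and the factors from 1 to 4, and between CD8 and CD4 cells from 60 to 119 genes with 0 factors throughout. Against B cells Foxo1 ran from −0.10 to 0.03. Between Relapsed and Cured CD8 cells the genes called ran from 2 to 224 and the factors from 0 to 4, with Lef1 from −0.26 to 0.04 and Foxp1 from −0.06 to 0.48. Below the split they ran from 1 to 225 genes and 0 to 4 factors, with Foxp1 from −0.10 to 0.48. Above it they ran from 2 to 20 genes and 0 to 1 factor, with Satb1 from −0.01 to 1.66, Lef1 from −0.28 to 0.51, Tcf7 from −0.02 to 0.73, Foxp1 from −0.10 to 0.77 and Ets1 from −0.07 to 0.53. In CD4 cells 0 to 9 genes were called, with Lef1 from −0.36 to 0.21 and Foxp1 from −0.20 to 0.12. In NK cells 2 to 180 genes and 0 to 2 factors were called, with Lef1 from −0.60 to 0.15, Tcf7 from −0.26 to 0.95, Foxp1 from −0.37 to 0.19 and Ets1 from −0.02 to 0.80. In B cells 7 to 1747 genes and 0 to 4 factors were called, with Satb1 from −0.00 to 0.73 and Lef1 from −0.74 to 0.36. The difference between the strata had 0 to 9 genes, with Bcl11b from −0.06 to 0.73, Satb1 from −0.75 to 1.05, Lef1 from −0.07 to 0.60, Tcf7 from −0.18 to 0.32 and Foxp1 from −0.24 to 0.48. The difference between CD8 and B cells had 1 to 12 genes, with Lef1 from −0.30 to 0.45, Foxp1 from −0.19 to 0.17 and Foxo1 from −0.29 to 0.13.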
